A study of Macaca mulatta with 24 samples.

Results

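The nucleus accumbens core (NAcc) of the 8 control macaques was examined by RNA-Seq as it stood without ethanol. These 8 animals were all those that the sample annotation placed in the control category, out of 24 rhesus macaques (Macaca mulatta) in the study. They were unrelated adult males with no ethanol intake (0 g/kg), and their individual ages were not used here. Both of their drinking spouts gave water throughout, a maltose dextrin solution supplied the calories that drinkers took as ethanol, and room, sessions and necropsy were those of the drinking animals of the same cohort. A single block of frozen core tissue was dissected from each animal with white matter avoided. Each animal was thus measured once and any spread is the spread between animals, tissue pieces and libraries together. Controls 1 to 3 came from cohort 5, controls 4 to 6 from cohort 7b and controls 7 and 8 from cohort 7a, and the numbers are only names. No comparison with drinking animals was made.

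The NAcc is the part of the ventral striatum in which cortical, thalamic and limbic glutamate input meets dopamine from the midbrain. Nearly all of its neurons are GABAergic spiny projection neurons, which carry the dopamine-regulated phosphatase inhibitor DARPP-32 (PPP1R1B). Direct-pathway spiny neurons hold the D1 dopamine receptor (DRD1) with the peptide precursors tachykinin 1 (TAC1) and prodynorphin (PDYN), whereas indirect-pathway spiny neurons hold the D2 receptor (DRD2) with the adenosine receptor ADORA2A and proenkephalin (PENK). A sparse set of interneurons uses acetylcholine, somatostatin with neuropeptide Y, parvalbumin or calretinin, and glia and vessels make up the rest.

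Levels are given in TPM, shares of transcripts after division of reads by gene length, with each library set to the same total. Different genes were ranked on these values, but the gene lengths used are not given in the sources used here. An error in a gene's length would shift its level alike in every animal. The sign-flip tests below ask only whether a difference between genes keeps its direction across animals. They cannot tell such a shift from a difference in transcript level. TPM values do not keep the sequencing depth, and no counting error can be given. Values are mean ± SD over the 8 controls unless stated. A TPM value is a share, so more RNA of some transcripts lowers the rest, and in tissue RNA fewer cells of a type cannot be told apart from less RNA per cell. Of 17208 gene symbols, 13747 had a mean of at least 1 TPM, 9390 of at least 10 TPM, 1959 of at least 100 TPM and 148 of at least 1000 TPM. In single animals between 13351 and 13878 genes reached 1 TPM, while 158 genes were listed at 0 in all 8 controls. Pairwise Pearson's r between libraries, over genes of at least 10 TPM on the log2(TPM + 1) scale, ran from 0.820 to 0.991.

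A pair of libraries stood apart. Control 6 had a median r of 0.882 with the other animals and control 8 one of 0.925. Control 6 went against its tissue label, since its PPP1R1B was 304 TPM against 1109 to 3926 TPM in the other 7 animals, with myelin and GFAP transcripts at their highest there. Control 8 had the lowest value of 41.9% of 9387 genes, and the 20 most abundant transcripts of its own library took 10.2% of the total against 6.37% in control 1. Transcripts of cortical excitatory neurons appeared in controls 2 and 7. SLC17A7, the vesicular glutamate transporter of cortical neurons, was 348 TPM in control 2, 119 TPM in control 7 and 30.5 TPM in control 8, against 0.897 to 2.68 TPM in the other 5. The part of these departures in the results was not tested, and results that rest on control 6 or 8 are given with and without them.

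Housekeeping, glial and translation transcripts filled the head of the ranking. The most abundant transcript was TMSB4X (thymosin beta 4, which binds actin monomers), at 5612 ± 734 TPM, followed by the glycolytic enzyme GAPDH at 5584 ± 713 TPM and the astrocyte lipid carrier APOE at 4366 ± 1619 TPM. Next came the protease inhibitor CST3 at 4145 ± 2029.5 TPM, the small ribosomal subunit protein RPS27 at 3976 ± 1094 TPM, the ferritin heavy chain FTH1 at 3892 ± 1265 TPM and the prostaglandin D synthase PTGDS at 3855 ± 2169 TPM. These places were not sharply ordered. TMSB4X exceeded GAPDH in only 3 of 8 animals and CST3 exceeded RPS27 in 3 of 8, whereas GAPDH exceeded APOE in 7 of 8.

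Others of the 20 highest were RPS18, the selenoprotein SEPW1, ubiquitin (UBB), the ferritin light chain FTL, clusterin (CLU), SPARCL1, RPL37A, the calmodulin-binding peptide PCP4, calmodulin (CALM3), the neuronal ubiquitin hydrolase UCHL1, the astrocyte filament protein GFAP and TMSB10. PENK, the precursor of the enkephalins, stood at rank 21 with 2481 ± 1536 TPM, above PPP1R1B (rank 26). TMSB4X, GAPDH, APOE, RPS27 and FTH1 were among the 20 highest of every animal, and GFAP and PCP4 of 4 animals each. Together the 20 genes held 6.73% of the mean total and the 100 highest 20.9%. The number of genes that held 50% of a library ran from 399 in control 8 to 701 in control 1.

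**Figure D1:**
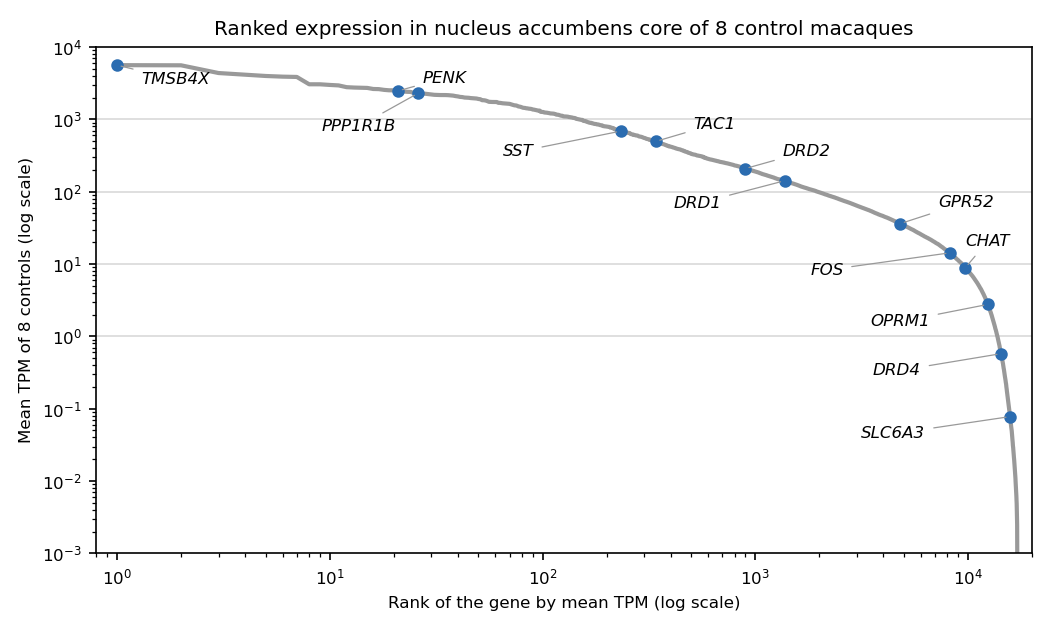
Mean level of each gene over the 8 controls against its rank, both axes logarithmic and levels in TPM, with named transcripts marked. TMSB4X leads, PENK (rank 21) and PPP1R1B (rank 26) lie near the top, DRD2 and DRD1 above 100 TPM, and SLC6A3 far below 1 TPM.

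Transcripts of spiny projection neurons were abundant and differed widely between animals. Of the 12 marker genes shared by both kinds of spiny neuron, 11 were in the table and all 11 had a mean of at least 10 TPM. PPP1R1B ran from 304 TPM in control 6 to 3926 TPM in control 3, with a median of 2266 TPM. ARPP21, another cAMP-regulated phosphoprotein, followed with 107 TPM in control 6 to 2736 TPM in control 3, with a median of 1540.1 TPM. The order of the animals for PPP1R1B was controls 3, 1, 7, 4, 2, 5, 8 and 6 from high to low, and the next lowest animal, control 8, had 1109 TPM. The 11 genes together held 0.578 ± 0.348% of the total, from 0.0716% in control 6 to 1.01% in control 3, and 0.651 ± 0.304% without control 6 (n = 7).

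RASD2, a striatal small GTPase, reached 476 ± 356 TPM, and the phosphodiesterase PDE1B 466 ± 324 TPM. ADCY5, the adenylyl cyclase of spiny neurons, was at 327 ± 163 TPM. The direct-pathway genes held 0.126 ± 0.0635% of the total and the indirect-pathway genes 0.313 ± 0.193%, most of it PENK. Without control 6 these shares were 0.142 ± 0.0496% and 0.352 ± 0.170% (n = 7). Not every gene on these lists followed the others. SFXN1, a mitochondrial serine transporter kept on the direct-pathway list, stayed between 39.5 and 48.9 TPM in all animals, control 6 included at 42.5 TPM. ISL1 and EBF1, developmental transcription factors of direct-pathway neurons, averaged 7.97 ± 1.91 and 2.75 ± 1.75 TPM.

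Interneuron transcripts were led by peptides. SST (somatostatin) ran from 408 TPM in control 8 to 960.0 TPM in control 5, with a median of 679 TPM, and NPY (neuropeptide Y) from 195 TPM in control 6 to 744 TPM in control 4, with a median of 564 TPM. In control 6 SST was near its median, at 699 TPM, whereas NPY was lowest there. TAC3 (neurokinin B), which marks a primate striatal interneuron class, was at 96.8 ± 67.3 TPM and highest in control 5 at 229 TPM. CALB2 (calretinin) was 309 TPM in control 6 and 27.9 to 86.6 TPM in the others. SLC18A3, the vesicular acetylcholine transporter, was likewise highest in control 6 (57.2 TPM) and next in control 8 (28.5 TPM), against 3.51 to 9.93 TPM in the other 6. CCK (cholecystokinin) stood out in control 2, at 136 TPM, the animal with the most SLC17A7.

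Astrocytes gave the largest share of any glial list, 1.38 ± 0.488%. GFAP ran from 687 TPM in control 3 to 6255 TPM in control 6, with a median of 2155 TPM, with controls 8, 2 and 5 next to control 6 at 3825, 3369 and 2655 TPM. AQP4, the astrocyte water channel, had a narrower range, 180.3 TPM in control 7 to 361 TPM in control 5, with a median of 233 TPM. The glutamate transporters went the other way for control 6, with SLC1A2 at 284 TPM there against 362 to 853 TPM elsewhere. Of the pair, SLC1A3 was above SLC1A2 in 8 of 8 animals, by 0.67 on the log2(TPM + 1) scale (exact sign-flip permutation test, adjusted p = 0.0125).

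Myelin genes held 0.508 ± 0.271% of the total, 0.423 ± 0.134% without control 6. MBP (myelin basic protein) ran from 288 TPM in control 1 to 1497 TPM in control 6, with a median of 574 TPM. The precursor genes OLIG1 and PDGFRA, the latter the receptor that defines oligodendrocyte precursors, were at 153 ± 68.7 and 28.3 ± 4.79 TPM. Microglial genes held 0.0702 ± 0.0205%, led by the complement subunits C1QB at 147 ± 59.6 and C1QC at 90.8 ± 34.0 TPM, both highest in control 5. Vascular genes held 0.0340 ± 0.00318% and were the steadiest cell-type list, at 0.0293 to 0.0380%, with the glucose transporter SLC2A1 at 104 ± 14.8 TPM.

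Genes of cells from outside the accumbens were low except where cortical transcripts appeared. Their 11 measured members held 0.0453% of the total in control 2, 0.0165% in control 7, 0.00753% in control 8 and 0.00650% in control 6, with 0.00112 to 0.00242% in the other 4. TBR1 and NEUROD6, transcription factors of cortical glutamatergic neurons, were 16.5 and 21.6 TPM in control 2 and 9.94 and 11.1 TPM in control 7. The dopamine transporter SLC6A3, which marks midbrain dopamine cells, averaged under 1 TPM. TTR, made by the choroid plexus, was 26.9 TPM in control 6 and 17.9 TPM in control 8, and HBB, the beta globin of red cells, stayed at or below 4.16 TPM.

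**Figure D2:**
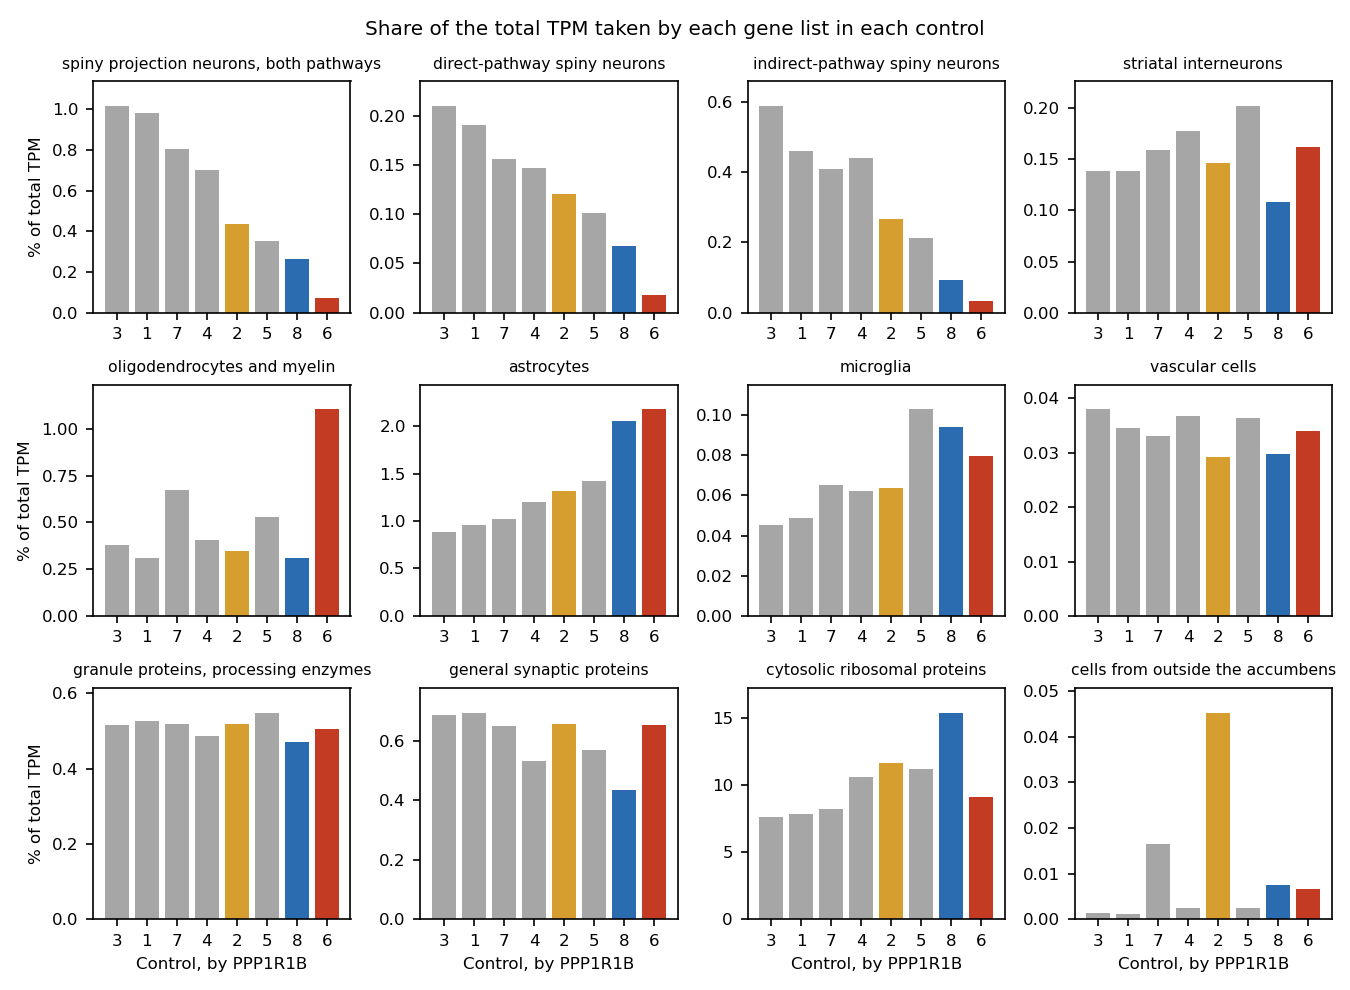
Share of the total (percent of TPM, linear axes from 0) held by 12 gene lists, with 1 bar for each of the 8 controls in falling order of PPP1R1B, control 6 in red, control 8 in blue and control 2 in yellow. The bars of the shared and the direct-pathway spiny lists fall along that order, and those of the indirect-pathway list do so except that control 4 stands above control 7. The shared list goes from 1.01% in control 3 to 0.0716% in control 6, while the vascular list stays at 0.0293 to 0.0380%.

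Dopamine receptor transcripts were led by the D2 and D1 receptors. DRD2 ran from 44.1 TPM in control 6 to 377 TPM in control 3, with a median of 194 TPM, and DRD1 from 8.14 TPM in control 6 to 274 TPM in control 1, with a median of 129 TPM. DRD2 lay above DRD1 in 7 of 8 animals, by 0.73 log2 units (exact sign-flip permutation test, p = 0.0156, adjusted p = 0.0208 over 16 pairs of related genes), with control 5 the exception, and by 0.50 without control 6 (p = 0.0312). The smallest p that 8 animals allow in this test is 0.00781. DRD3, the receptor typical of the ventral striatum, was at 45.0 ± 25.5 TPM and below DRD1 in every animal. DRD5 averaged 4.56 ± 2.65 TPM and DRD4 under 1 TPM.

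Among the opioid family the nociceptin receptor OPRL1 was highest, at 46.7 ± 11.9 TPM, above the kappa receptor OPRK1 in all 8 animals. OPRK1 ran from 4.55 TPM in control 6 to 39.0 TPM in control 1, with a median of 18.4 TPM, and exceeded the mu receptor OPRM1 in 8 of 8 animals by 2.29 log2 units (exact sign-flip permutation test, adjusted p = 0.0125). OPRM1 averaged 2.76 ± 1.05 TPM and the delta receptor OPRD1 2.34 ± 1.33 TPM, and these low levels did not pass the test of a difference (adjusted p = 0.223, exact sign-flip permutation test). Of the muscarinic receptors, CHRM1 at 151 ± 83.3 TPM was above CHRM4, the direct-pathway receptor, at 67.6 ± 39.8 TPM in every animal, with CHRM2, CHRM3 and CHRM5 at means of 2.12, 6.30 and 1.93 TPM.

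ADORA2A was the most abundant receptor of the adenosine and cannabinoid lists. It ran from 12.5 TPM in control 6 to 481 TPM in control 3, with a median of 264 TPM, and exceeded the A1 receptor ADORA1 in 7 of 8 animals. The difference of 1.32 log2 units did not pass with all 8 animals (exact sign-flip permutation test, adjusted p = 0.0865), since in control 6 ADORA1 was 94.7 TPM and ADORA2A 12.5 TPM. Without control 6 it was 1.91, in the same direction in 7 of 7 animals (exact p = 0.0156, the smallest that 7 animals allow). The cannabinoid receptor CNR1 averaged 39.4 ± 24.1 TPM, and CNR2 was under 1 TPM. Serotonin receptors were led by HTR2C at 54.1 ± 23.4 TPM and HTR6 at 32.0 ± 21.4 TPM. HTR1B, HTR4 and HTR1D followed at means of 13.9, 13.2 and 11.5 TPM, in an order that changed from animal to animal, and HTR3A, HTR2B and HTR1F were under 1 TPM.

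Receptors without a settled transmitter were strongly expressed. GPR6, an indirect-pathway receptor, averaged 118 ± 78.7 TPM and GPR158 72.0 ± 51.2 TPM. GPR52, another indirect-pathway receptor, fell from 72.5 TPM in control 1 to 0.616 TPM in control 6. Peptide receptors were led by NTSR2, a neurotensin receptor of astrocytes, at 179.8 ± 78.9 TPM, highest in control 6 at 344 TPM, and by the PACAP receptor ADCYAP1R1 at 93.6 ± 29.0 TPM. Then came CCKBR, SSTR2 and NPY1R, receptors of cholecystokinin, somatostatin and neuropeptide Y, at 26.6 ± 13.4, 21.8 ± 13.1 and 15.7 ± 5.53 TPM. The receptors of oxytocin and vasopressin, OXTR and AVPR1A, were under 1 TPM, as were GALR1, MC3R and GPR39.

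For glutamate, the obligatory NMDA subunit GRIN1 was highest, at 459.9 ± 169 TPM, and above GRIA1 in all 8 animals. The AMPA subunits GRIA1 and GRIA2 followed at 138 ± 40.5 and 131 ± 59.6 TPM, and did not differ from each other beyond their spread (exact sign-flip permutation test, adjusted p = 0.275). The modulatory NMDA subunit GRIN2B was above GRIN2A in 8 of 8 animals by 0.63 log2 units (adjusted p = 0.0125, same test), both at low means of 10.5 and 5.75 TPM. The kainate subunit GRIK5 had a narrow range, from 64.2 to 94.5 TPM. Metabotropic receptors were ordered GRM3, GRM5, GRM4 and GRM7, at means of 144, 56.3, 30.1 and 15.9 TPM.

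For GABA, the GABA-B subunit GABBR1 was highest at 513 ± 110.4 TPM. GABRA5, the alpha-5 subunit of the GABA-A receptor, ran from 45.0 TPM in control 6 to 488 TPM in control 4, with a median of 391 TPM, and the delta subunit GABRD from 14.5 TPM in control 6 to 255 TPM in control 3, with a median of 161 TPM. In both, control 6 was far below the other 7 animals.

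**Figure D3:**
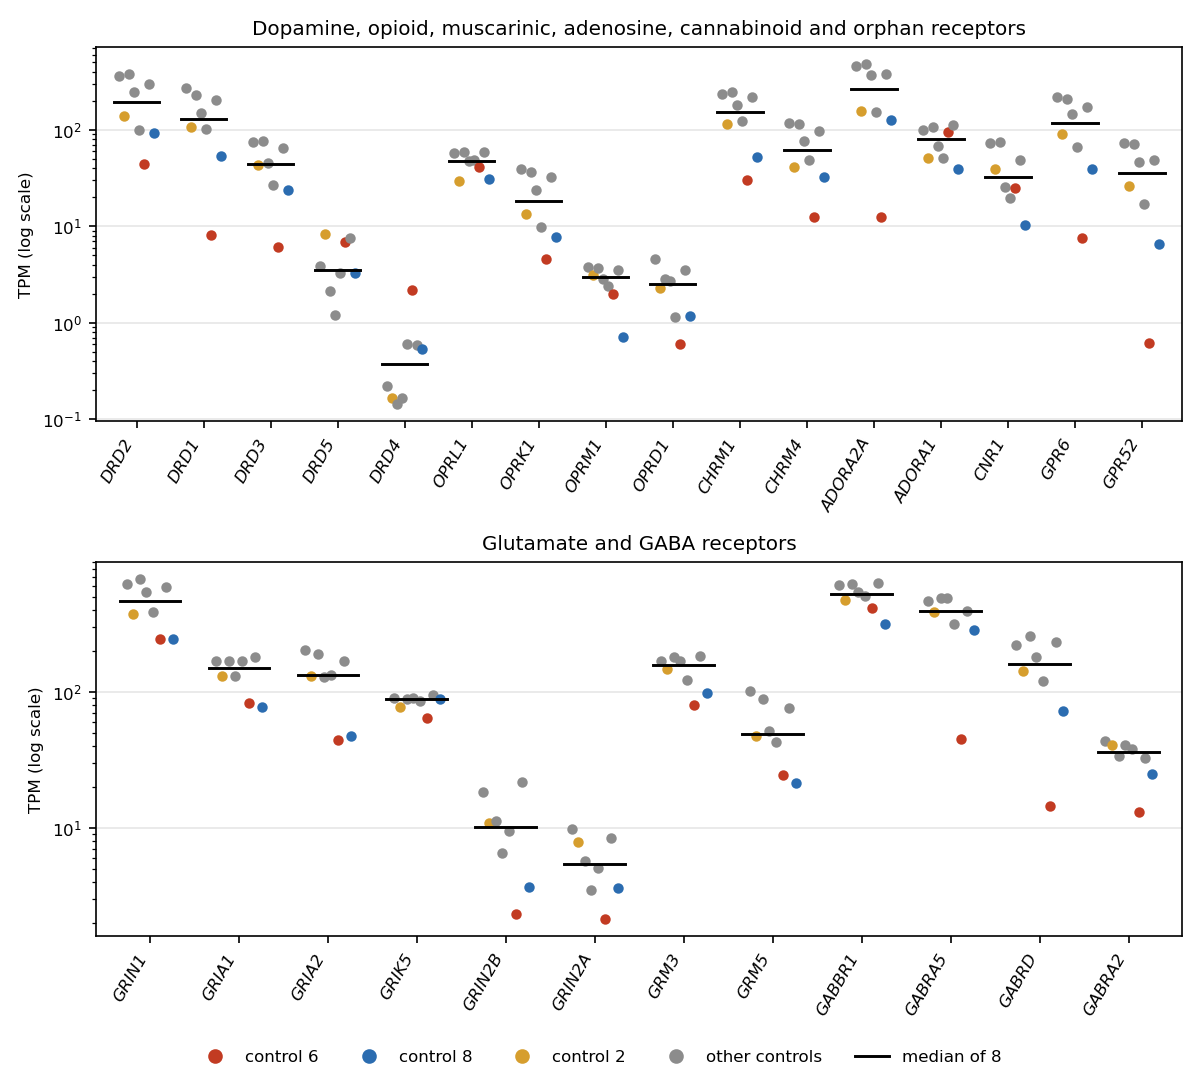
Levels of receptor transcripts (TPM, logarithmic axis), with 1 point for each of the 8 controls, control 6 in red, control 8 in blue, control 2 in yellow and the median as a line. Control 6 is the lowest point for DRD1, DRD2, ADORA2A and GABRA5 and the highest for DRD4.

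Peptide precursors spanned a wide range of levels, and all 21 averaged at least 1 TPM. PENK ran from 265 TPM in control 6 to 4718 TPM in control 3, with a median of 2696 TPM. PDYN ran from 35.0 TPM in control 6 to 858 TPM in control 3, with a median of 515 TPM, and TAC1 from 70.4 TPM in control 6 to 782 TPM in control 3, with a median of 508 TPM. In every animal PENK exceeded both, PDYN by 2.38 and TAC1 by 2.12 log2 units (exact sign-flip permutation tests, adjusted p = 0.0125 for each), whereas TAC1 was above PDYN in only 4 of 8 animals. SST exceeded TAC3 in 8 of 8 animals by 3.05 log2 units (adjusted p = 0.0125, same test). CARTPT, the precursor of the CART peptides, ran from 18.6 TPM in control 1 to 158 TPM in control 5, with a median of 62.8 TPM, an order unlike that of the spiny genes.

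Together the 21 peptide genes held 0.505 ± 0.212% of the total, and the secretory machinery held 0.512 ± 0.0236%. That machinery was far steadier between animals, at 0.472 to 0.549%. Carboxypeptidase E (CPE), which trims peptide precursors, was at 2128 ± 283 TPM, and the granule protein SCG2 at 646 ± 215 TPM. PCSK1N, an inhibitor of the prohormone convertase PC1, was highest in control 6, at 1429 TPM, where SCG2 was 339 TPM.

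Among transcription factors of striatal neurons, MEIS2 was highest at 169.6 ± 85.9 TPM, then the retinoid receptors RXRG at 126 ± 59.6 TPM and RARB at 65.9 ± 41.7 TPM. RARB ran from 4.58 TPM in control 6 to 117 TPM in control 3, with a median of 70.2 TPM. SIX3 and BCL11B (CTIP2), factors of spiny neuron development, had medians of 55.6 and 36.2 TPM. FOXP1 exceeded FOXP2 in 8 of 8 animals by 1.61 log2 units (exact sign-flip permutation test, adjusted p = 0.0125). LHX6, a factor of interneurons, went the other way and was highest in control 6, at 40.0 TPM against 15.4 to 27.3 TPM.

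Immediate early genes, which neurons switch on within minutes of activity, were all detected. JUNB averaged 67.8 ± 33.0 TPM, EGR3 62.0 ± 37.6 TPM and EGR1 61.4 ± 42.6 TPM, followed by EGR4 at 38.0 ± 24.0 TPM and JUN at 37.3 ± 11.3 TPM. EGR1 ran from 17.5 TPM in control 6 to 123 TPM in control 7, with a median of 51.8 TPM. FOS ran from 6.79 TPM in control 4 to 29.0 TPM in control 7, with a median of 12.0 TPM, below EGR1 in 8 of 8 animals by 1.78 log2 units (exact sign-flip permutation test, adjusted p = 0.0125). Control 7 had the highest values of JUNB (132 TPM), EGR1, NR4A1 (66.0 TPM), DUSP1 (38.0 TPM) and ARC (40.7 TPM). Of heat shock genes, HSPA8 averaged 1837 ± 267 TPM and HSP90AB1 1560.0 ± 209 TPM, both lowest in control 8.

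**Figure D4:**
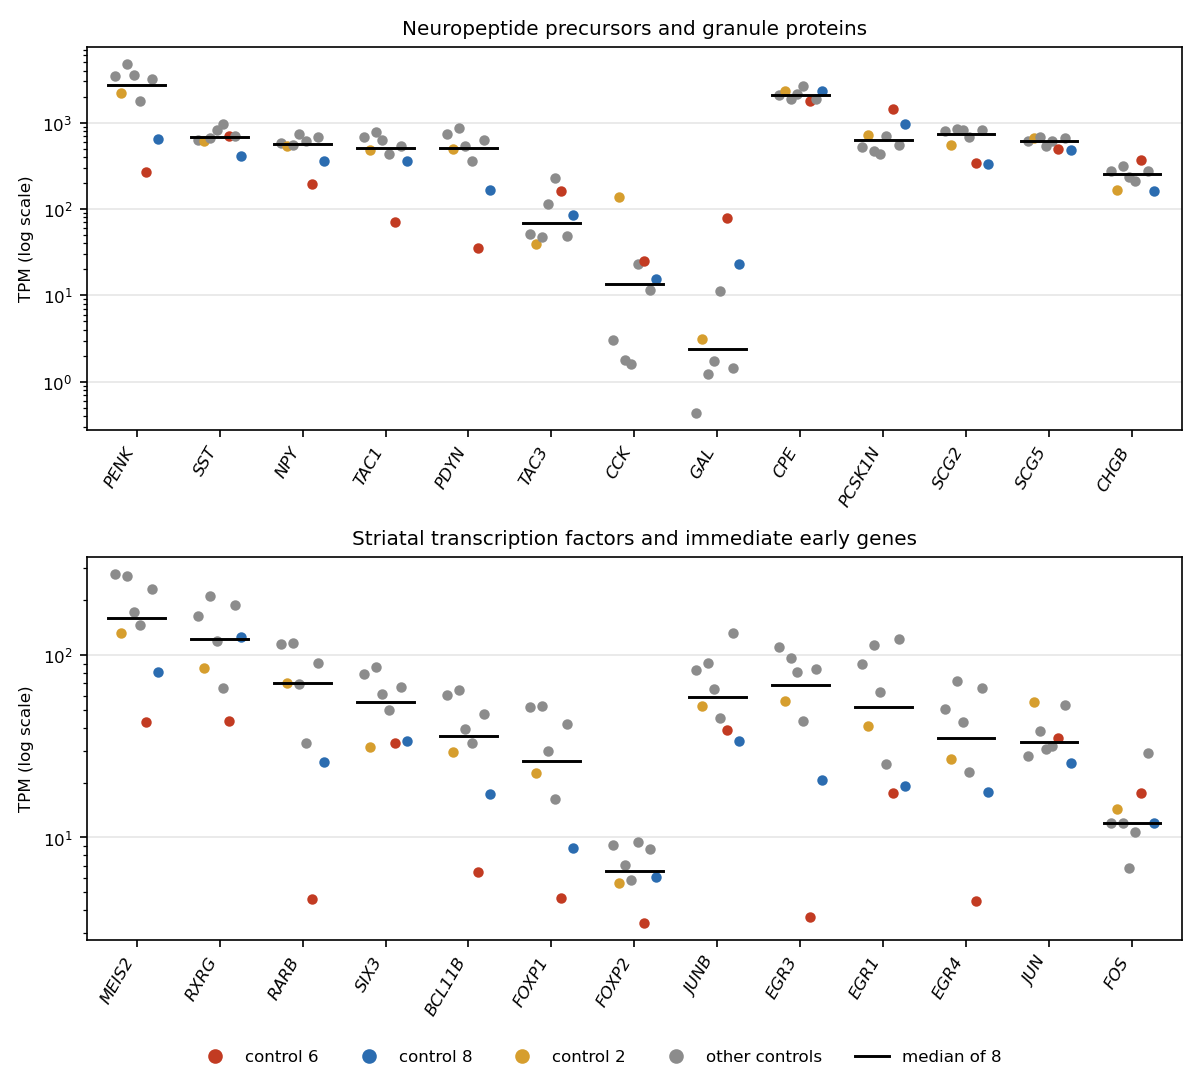
Levels of neuropeptide precursors and granule proteins (top) and of striatal transcription factors and immediate early genes (bottom), in TPM on logarithmic axes, with 1 point for each of the 8 controls, control 6 in red, control 8 in blue, control 2 in yellow and the median as a line. Control 6 is the lowest point for PENK, PDYN, TAC1, RARB and EGR3 and the highest for GAL and PCSK1N, and CCK is highest in control 2.

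The SD of log2(TPM + 1) between animals had a median of 0.29 over 9387 genes of at least 10 TPM, with 5% of genes under 0.12 and 5% over 0.79. In 178 genes the highest animal was more than 10-fold above the lowest. The 10 genes with the widest spread were SLC17A7, NGFR, IFIT1B, MYOC, CST6, SCGN, ANO3, ARHGAP36, GAL and APLNR. In some of these genes, such as NGFR and MYOC, the departure came from 1 or 2 animals. NGFR, the p75 neurotrophin receptor, was 185 TPM in control 6 and 77.1 TPM in control 8, against 0.0543 to 8.91 TPM in the other 6, and MYOC (myocilin, a secreted glycoprotein) was 121 TPM in control 8 and at most 7.38 TPM elsewhere. GAL, the galanin precursor, was 78.6 TPM in control 6, 22.9 TPM in control 8 and 11.4 TPM in control 5. IFIT1B, of the interferon-induced family, instead split the animals, at 0.0316, 0.0509 and 0.0886 TPM in controls 1, 3 and 4 and 11.0 to 43.9 TPM in the other 5.

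CST6, the cystatin E/M protease inhibitor, was 1.92 TPM in control 5 and 32.8 to 256 TPM in the rest. The steadiest genes were C14orf166, ZBTB45, RBM34, SHISA5, PDE6D, DDA1, NACC1, MIB2, ZDHHC3 and CTBP1. C14orf166, a component of RNA-binding complexes, was at 138 ± 3.17 TPM, and the transcriptional corepressor CTBP1 at 191 ± 6.77 TPM. For these 2 genes the SD was 2.29% and 3.54% of the mean.

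Which transcripts rose and fell together from animal to animal was asked next, on the log2(TPM + 1) scale. Spiny neuron genes moved as a block. PPP1R1B and RGS9, the striatal regulator of G-protein signalling, had Pearson's r = 0.999 (exact permutation test, p = 4.96e-05, adjusted p = 0.000298) and Spearman's rho = 0.976 (p = 0.000397, adjusted p = 0.00179). Within cohorts r was 0.999 (exact permutation within cohorts, p = 0.0139, the smallest these cohorts allow), and without controls 6 and 8 it was 0.994 (n = 6). Genes of opposite spiny pathways were no exception. DRD1 and DRD2 had Pearson's r = 0.933 (exact permutation test, p = 4.96e-05, adjusted p = 0.000298) and Spearman's rho = 0.976 (p = 0.000397, adjusted p = 0.00179), with r = 0.904 within cohorts (exact permutation within cohorts, adjusted p = 0.0556, which did not pass) and 0.955 without controls 6 and 8, the 2 animals farthest from the median of DRD1.

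Within the pathways r was 0.989 for DRD1 with PDYN, 0.974 for DRD1 with TAC1, 0.935 for DRD2 with PENK and 0.938 for DRD2 with ADORA2A, and across them 0.980 for PENK with PDYN. All 5 passed (exact permutation tests over 18 pairs, adjusted p = 0.000298 to 0.00117), with rho from 0.929 to 1. Within cohorts their r ran from 0.923 to 0.988, with adjusted p of 0.0417 to 0.0556 by exact permutation. Without controls 6 and 8 the lowest of the 5 was that of DRD1 with TAC1, at 0.826 (exact permutation test, p = 0.0597).

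The cholinergic pair CHAT, which makes acetylcholine, and SLC5A7, the choline transporter, had Pearson's r = 0.975 (exact permutation test, p = 0.000174, adjusted p = 0.000446) and Spearman's rho = 0.952 (p = 0.00114, adjusted p = 0.00293), and kept r = 0.992 within cohorts and 0.942 without controls 4 and 6. SST and NPY, made by the same interneurons, had Pearson's r = 0.366 (exact permutation test, p = 0.338, adjusted p = 0.358) and Spearman's rho = 0.667 (p = 0.0831, adjusted p = 0.0997). Without control 6 their r was 0.860 (exact permutation test, adjusted p = 0.0333), and within cohorts 0.704 (p = 0.292). Their r was 0.535 without controls 6 and 8. Without controls 5 and 8, the 2 farthest from the median of SST, it was 0.141 (exact permutation test, p = 0.764). FOS and EGR1 had Pearson's r = 0.162 (exact permutation test, p = 0.712, adjusted p = 0.712) and Spearman's rho = 0.190 (p = 0.665, adjusted p = 0.665), and r within cohorts was 0.0874.

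GFAP ran against the spiny genes. PPP1R1B and GFAP had Pearson's r = -0.905 (exact permutation test, p = 0.000719, adjusted p = 0.00144) and Spearman's rho = -0.952 (p = 0.00114, adjusted p = 0.00293), with r = -0.934 within cohorts, -0.922 without control 6 and -0.891 without controls 6 and 8. PPP1R1B and MBP had Pearson's r = -0.877 (exact permutation test, p = 0.00563, adjusted p = 0.0101) and Spearman's rho = -0.762 (p = 0.0368, adjusted p = 0.0551). Without control 6 r was -0.674 (exact permutation test, p = 0.108) and no longer passed, with a slope of MBP on PPP1R1B of -0.45 against -0.51 with all animals, and within cohorts r was -0.896 (p = 0.0556). MBP and GFAP had Pearson's r = 0.820 (exact permutation test, p = 0.00833, adjusted p = 0.0136) and Spearman's rho = 0.714 (p = 0.0576, adjusted p = 0.0740), but the call was lost within cohorts, at r = 0.863 (exact permutation, adjusted p = 0.115), and without control 6, at 0.711 (adjusted p = 0.117).

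GFAP and AQP4, both of astrocytes, had Pearson's r = 0.534 (exact permutation test, p = 0.176, adjusted p = 0.211) and Spearman's rho = 0.548 (p = 0.171, adjusted p = 0.192). Their r within cohorts was 0.781 (exact permutation, adjusted p = 0.115). Without control 6 it was 0.316, and without controls 3 and 6 it was 0.115. The microglial receptors CX3CR1 and P2RY12 had Pearson's r = 0.821 (exact permutation test, p = 0.0144, adjusted p = 0.0199) and Spearman's rho = 0.762 (p = 0.0368, adjusted p = 0.0551), but did not pass within cohorts, at r = 0.813 (exact permutation, adjusted p = 0.125), or without controls 4 and 5, at 0.627 (p = 0.189). CLDN5 and FLT1, of endothelium, had Pearson's r = 0.485 (exact permutation test, p = 0.218, adjusted p = 0.246) and Spearman's rho = 0.286 (p = 0.501, adjusted p = 0.530). Their r within cohorts was 0.763 (exact permutation, adjusted p = 0.125). RPLP0, a ribosomal stalk protein, and SNAP25, a synaptic fusion protein, had Pearson's r = -0.825 (exact permutation test, p = 0.0120, adjusted p = 0.0179) and Spearman's rho = -0.762 (p = 0.0368, adjusted p = 0.0551), but did not pass within cohorts, at r = -0.851 (exact permutation, adjusted p = 0.125), or without controls 3 and 8, at -0.463 (p = 0.362). Of 18 pairs, 14 passed by r with all animals, 9 by rho, 6 within cohorts and 9 without controls 6 and 8. With 2 or 3 animals in a cohort, permutation within cohorts cannot give a p below 0.0139. Each animal came from 1 dissection, so these r describe tissue pieces and not cells.

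The slope of every gene of at least 10 TPM on the log2 level of PPP1R1B was then fitted with limma, an adjusted p under 0.05 being called. Of 9389 genes, 1513 (16.1%) were called with a positive slope and 948 (10.1%) with a negative one, and without control 6 these were 2047 (21.8%) and 948 (10.1%). The counts of each list that follow are to be read beside these shares. Of the spiny genes, all 10 tested shared ones were called positive (9 without control 6), as were 5 of 6 direct-pathway genes and 6 of 6 indirect-pathway genes (5 without control 6 in each). The exception in the direct list was SFXN1, whose slope was 0.01 ± 0.05 (SE). RGS9 had a slope of 0.94 ± 0.04 (limma, adjusted p = 1.05e-06) and ADCY5 one of 0.68 ± 0.05 (adjusted p = 1.07e-05). In log2 units per log2 unit of PPP1R1B, DRD1 had 1.25 ± 0.08 and DRD2 0.86 ± 0.07. The genes with the highest r were RGS9, EHBP1L1, HPCA (hippocalcin, a neuronal calcium sensor), TMOD1 (an actin cap) and PCP4, with r from 0.996 to 0.999 over 8 animals. Those with the lowest r were TRAF3IP2, TNS3 and LITAF, at -0.996 to -0.995.

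Receptors followed PPP1R1B in different measure. All 7 tested orphan receptors, 3 of 3 dopamine receptors (DRD1, DRD2 and DRD3), 2 of 2 muscarinic and 4 of 4 metabotropic glutamate receptors were called positive, and without control 6 the counts were 7, 3, 2 and 4. Ionotropic subunits were mixed. Of 11 glutamate subunits 5 were positive and 1 negative (3 and 0 without control 6), and of 16 GABA and glycine subunits 7 were positive and 1 negative (9 and 0). Among adenosine and cannabinoid receptors 1 of 4 was called, ADORA2A, with 1.35 ± 0.07, and 3 of 4 without control 6. Of serotonin receptors 4 of 5 were positive (2 without control 6), and of peptide receptors 4 of 7 were positive and 1 negative, ADCYAP1R1, with -0.30 ± 0.06 (limma, adjusted p = 0.00708).

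Of 14 peptide genes 6 were positive and 3 negative (4 and 4 without control 6), with PENK at 1.10 ± 0.11 among the positive and GAL at -1.55 ± 0.15 among the negative. Of 15 striatal transcription factors 9 were positive and 3 negative (7 and 0 without control 6), and of 14 immediate early genes 8 were positive and 1 negative (8 and 0). EGR3 had a slope of 1.20 ± 0.09 and FOS, which was not called, one of -0.07 ± 0.15. General synaptic genes, made by all neurons, were called positive in 2 of 12 and negative in 1 of 12 (4 and 1 without control 6). With all 8 controls these counts lay near the shares of all genes, 16.1% positive and 10.1% negative. Interneuron genes gave 3 positive and 4 negative of 11 (1 and 2 without control 6). Secretory granule genes gave 4 positive and 2 negative of 11 (6 and 1), and heat shock genes 1 and 2 of 9 (2 and 1).

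On the glial side, 7 of 14 astrocyte genes were negative and 1 positive, and 7 of 14 negative without control 6. Microglial genes were negative in 3 of 10, and in 7 of 10 without control 6, with 1 positive. Oligodendrocyte genes were negative in 2 of 15, and in 0 of 15 without control 6, and precursors in 1 of 5 and 0 of 5. Of 7 vascular genes 1 was positive. Over all genes, 10.1% were negative and 16.1% positive with all 8 controls, and 10.1% and 21.8% without control 6. The oligodendrocyte and vascular counts with all 8 controls lay near these shares, and 5 precursor genes are too few to compare. Counts of ribosomal protein genes depended on the animals kept. With all 8 controls 1 of 78 was negative, without control 6 it was 74 of 78, and without controls 6 and 8 it was 44, where 616 of all genes (6.56%) were negative and 822 (8.75%) positive, while no ribosomal gene was positive in any of these. RPLP0 itself had a slope of -0.16 ± 0.11 with all 8 animals (limma, adjusted p = 0.298) and -0.58 without control 6 (adjusted p = 0.00268). In control 6 the ribosomal share was 9.12%, and in the 7 others it ran from 7.60% to 15.4%.

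Slopes on GFAP were mostly opposite in sign for the spiny genes. Of 9389 genes 616 (6.56%) were called positive on GFAP and 1151 (12.3%) negative, and without control 6 the calls were 240 (2.56%) and 530 (5.64%). Of 11 spiny shared genes 10 were negative with and without control 6, and so were 6 of 6 indirect-pathway genes (5 without control 6) and 5 of 6 direct-pathway genes (5 without). Of the other 13 astrocyte genes 5 were positive and 1 negative (2 and 0 without control 6), and of 10 microglial genes 3 were positive (4). Highest in r were SH3RF3, ADCY2, EFHD2, RAB4A and CCDC167, at 0.980 to 0.989, and lowest ETNK2, C20orf27 and ICMT, at -0.979 to -0.969. With PPP1R1B as a covariate 2 genes were called, an alternative added after the values had been seen.

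Calls on MBP were lost without control 6. With all animals 687 genes (7.32%) were positive and 865 (9.21%) negative, with 7 of 14 oligodendrocyte genes positive and 11 of 11 spiny shared genes negative, but without control 6 no gene was called by limma (1139 at an unadjusted p under 0.05). RALY, LLGL1, GLIPR2, FAM107B and PXN had the highest r with MBP, at 0.981 to 0.996 and 0.957 to 0.992 without control 6. Lowest were MMD, ZBTB46 and METTL9, at -0.966 to -0.961. None of the 8 was a marker on the oligodendrocyte list, whose 14 tested members had a median slope of 0.75, against -0.02 for all genes.

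On RPLP0, 378 genes (4.03%) were positive and 1243 (13.2%) negative. With TMM factors (trimmed mean of M-values) applied to the libraries the split was 738 and 624, and the median slope of all genes moved from -0.21 to -0.03. Ribosomal genes were positive in 69 of 77, with a median slope of 0.76, and 75 of 77 without control 6. In that fit 1021 of all genes (10.9%) were positive and 3103 (33.0%) negative. Synaptic genes were negative in 4 of 12 and none was positive. RPS6, RPS18 and RPS14 were among the 5 genes with the highest r, at 0.987 to 0.991, and LDOC1, C14orf169 and TMEM63B the lowest, -0.994 to -0.991. Without control 8, whose ribosomal share was the highest at 15.4%, no gene was called (1642 at an unadjusted p under 0.05), though r of those 3 ribosomal genes was still 0.973 to 0.986. Without controls 6 and 8 together, added after seeing the data, 621 genes (6.61%) were positive and 1148 (12.2%) negative.

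For CX3CR1 and FOS limma called 0 of 9389 genes in either direction (0% and 0%), with 63 and 82 genes at an unadjusted p under 0.05. The genes most like CX3CR1, the fractalkine receptor of microglia, were TNFRSF1B, A2M, SLC2A4RG, DCAF12 and CSF1R, the last a growth factor receptor of microglia, at r of 0.834 to 0.895. Lowest were TTC12, DNAAF3 and FNDC4, at -0.858 to -0.842. For FOS they were SLC7A4, NXPH4, DUSP1 (a phosphatase also induced by activity), NUDT9 and CITED2, at 0.879 to 0.917, and PMP2, NLE1 and BIN3 lowest at -0.929 to -0.861.

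Seen list by list, the median r over gene pairs was 0.976 within the shared spiny genes, 0.932 within oligodendrocyte genes, 0.924 within ribosomal genes and 0.755 within microglial genes, against 0.131 over all gene pairs. It was 0.554 within immediate early genes, 0.534 within astrocyte genes and 0.409 within synaptic genes. Interneuron genes, which belong to several small cell classes, had 0.0419, transcription factors 0.145 and vascular genes -0.0128. Between the shared spiny genes and the astrocyte genes the median was -0.737, and -0.728 without control 6. Against oligodendrocyte genes it was -0.519 with control 6 and 0.227 without it. Against ribosomal genes it was -0.396 with control 6 and -0.906 without it. These medians are descriptions, since the genes of a list share the same 8 libraries.

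**Figure D5:**
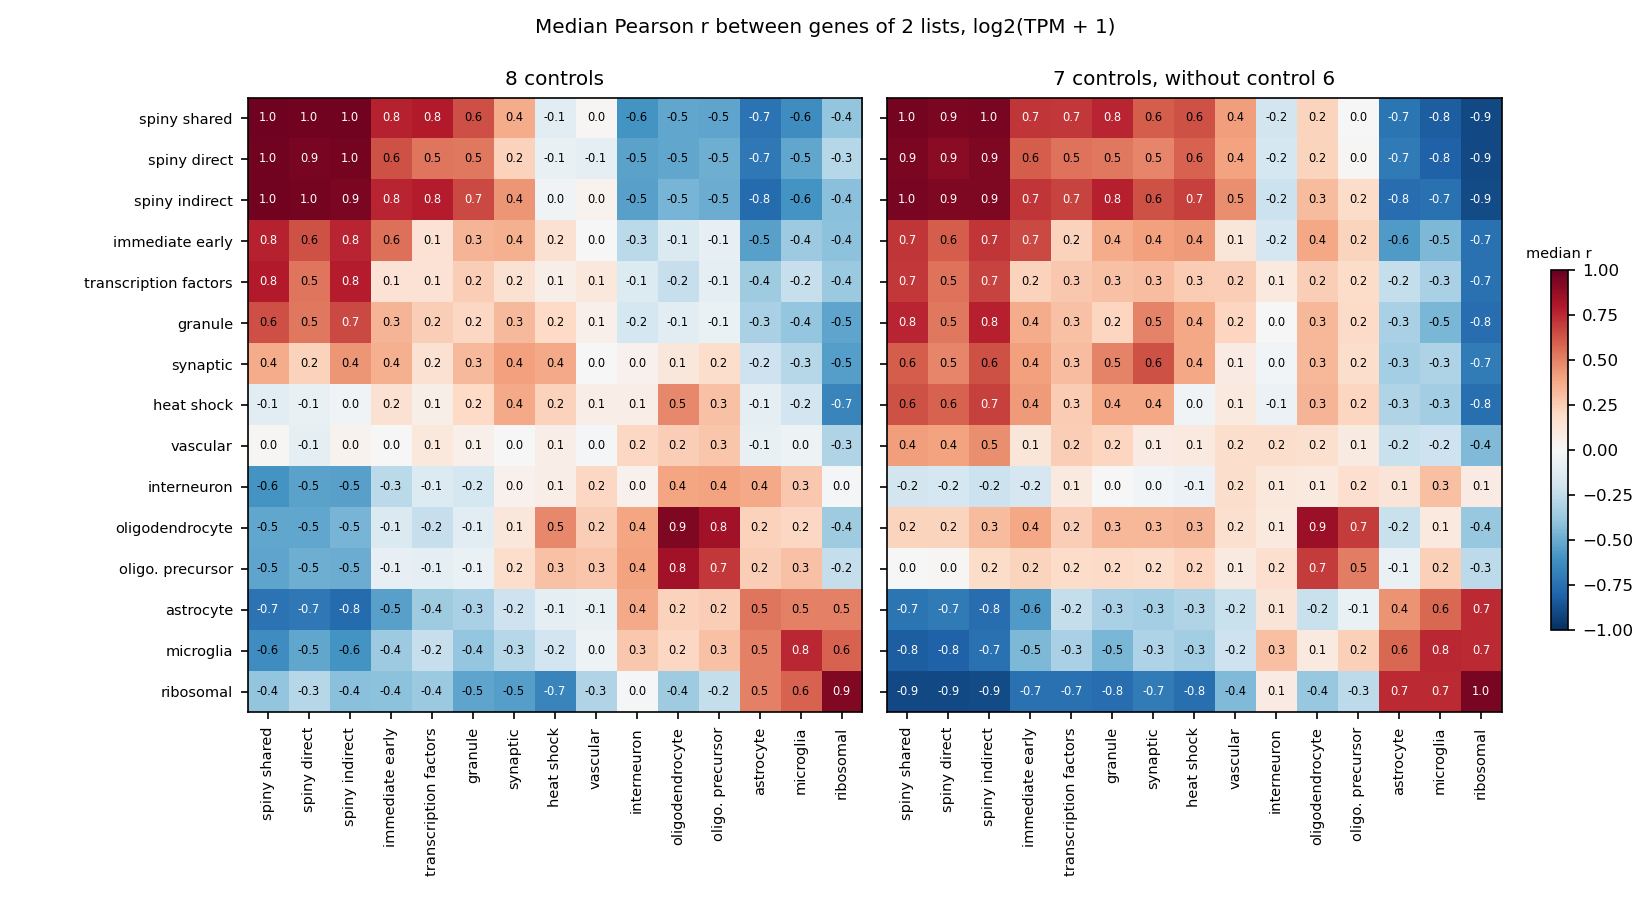
Median Pearson's r over the gene pairs of each pair of lists, from -1 (blue) to 1 (red), with all 8 controls at the left and without control 6 at the right. The spiny and oligodendrocyte block goes from -0.519 to 0.227 and the spiny and ribosomal block from -0.396 to -0.906.

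A principal component analysis of 9390 genes put 61.4% of the variance on the first component, which ran from control 6 (-55.8) and control 8 (-34.8) to control 3 (31.7) and control 1 (34.6). The second (18.3%) set control 6 (28.0) against control 8 (-32.1). On the first component 1077 genes had r of at least 0.9 and 349 of at most -0.9, and 10 of the 11 shared spiny genes were among the former.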

How the data were processed

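RNA-Seq of the NAcc core of 8 controls among 24 macaques was used. According to the paper and the submitters' notes, the authors prepared polyA-selected libraries (the accounts differ on strand and on single or paired ends), aligned reads to the MacaM assembly with STAR 2.5.2b, kept uniquely aligned reads with at most 2 mismatches and counted genes with HTSeq 0.6.1p1. The deposited values are TPM, although they are named normalized counts. How the authors made them is not given in the sources used here. Columns sum to 999998 or more, so depth is unknown. Of the symbols, 27 had been turned into dates and 2 occur more than once. GNAL, HBA1, HSP90AA1, HSPA1B and PECAM1 were not found under these symbols and were not analysed here, and some other genes are not reported here.

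Values were taken as log2(TPM + 1) over genes averaging 10 TPM or more. Slopes on 6 anchor genes were fitted with limma 3.58.1 in R 4.3.3 (empirical Bayes with a trend, Benjamini-Hochberg adjusted p under 0.05). Pairs were tested by exact two-sided permutation of pairings (40320) or of signs (256), in Python 3.11.15 with numpy 2.4.6, scipy 1.17.1 and pandas 2.3.3. P-values rest on the spread between single samples of unrelated animals, in which animal, tissue piece and library cannot be separated. The fit was tested on simulated data with independent noise for each gene, which cannot judge calls that rest on control 6 or 8. Genes are named by rule: the 20 highest means, the 5 highest of each list (all in lists of up to 6), the 10 widest and 10 narrowest SDs, the 5 highest and 3 lowest r per anchor, and genes of the pairs. Others were chosen after their values were seen. Members, lists and pairs were chosen with earlier results of these data known. Alternatives were pseudocounts of 0.1 and 8, filters of 1 and 100 TPM, TMM, cohort as a covariate and each animal left out.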

Additional observations from a re-analysis of the deposited data

Results flagged for a closer look

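In 18 of 211 named genes tested (8.53%) and 2 of 27 list shares, 1 animal was separated from the other 7 by a wide gap. The gap was taken as a share of the whole range, on log2(TPM + 1) for genes and log2 of the percent for shares. It exceeded Dixon's 95% critical value for 8 samples. Chance marks about 1 in 20 such groups, but the genes are not independent and some were named for their spread or their r in these same animals, so the share cannot be read against that rate. Control 6 was the separate animal for 11 of the 18 genes, control 8 for 5, and controls 2 and 5 for 1 each.

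Values below are in TPM or percent and not on that log2 scale, and those of the other 7 animals follow each value in turn. In control 6, genes of spiny neurons and their receptors were low. ADORA2A was 12.5 TPM against 126 to 481 TPM, TAC1 was 70.4 TPM against 355 to 782 TPM, HPCA was 200.2 TPM against 1032 to 3767 TPM and TMOD1 was 21.3 TPM against 60.7 to 151 TPM. The GABA-A subunits followed, since GABRA5 was 45.0 TPM against 284 to 488 TPM, GABRD was 14.5 TPM against 71.8 to 255 TPM and GABRA2 was 12.9 TPM against 24.9 to 43.2 TPM, and so did the peptide receptor gene NPY1R, at 4.84 against 11.1 to 21.1 TPM. Higher there were 3 genes. CALB2 was 309 TPM against 27.9 to 86.6 TPM, DRD4 was 2.20 TPM against 0.142 to 0.599 TPM and CNR2 was 0.214 TPM against 0 to 0.0730 TPM, the last 2 at low levels. The share of direct-pathway genes was 0.0180% in control 6 against 0.0680 to 0.210% elsewhere.

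In control 8, MYOC was 121 TPM against 0.389 to 7.38 TPM and RPLP1 was 3803 TPM against 1790.2 to 2491 TPM, both above the rest. Below the rest there, HSPA8 was 1253 TPM against 1709 to 2062 TPM, MIB2 was 46.5 TPM against 49.7 to 51.8 TPM and OPRM1 was 0.710 TPM against 2.00 to 3.82 TPM. The share of heat shock genes was 0.331% in control 8 against 0.429 to 0.528% elsewhere. The TMM factor of control 8 was 0.849, against 0.987 to 1.05 in the other animals. That shift in scale is larger than the gap of MIB2, and these gaps were not tested on rescaled values. In control 2, SLC2A1 was 72.3 TPM against 95.9 to 122 TPM. In control 5, CST6 was 1.92 TPM against 32.8 to 256 TPM.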

How the results depend on the processing

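Shares of all 27 lists moved by less than their SD with each animal left out. Leaving out 1 of 8 animals cannot move a mean by as much as its SD, so this outcome was fixed in advance. The mean share of genes from outside the accumbens, 0.0104% with all animals, ran from 0.00540 to 0.0117%. The 12 gene pairs that differed in level numbered 12 to 13 with each animal left out. The 14 pairs that co-varied became 6 within cohorts, 9 by rho, 9 without controls 6 and 8 (added after seeing the data) and 11 to 13 with each animal left out. With each animal left out, FOS with EGR1 had r of -0.385 to 0.362, the lowest without control 7. After removing the fit on PPP1R1B (added after seeing the data, no test), r was -0.642 for DRD1 with DRD2, -0.0596 for DRD2 with PENK, -0.926 for DRD2 with ADORA2A and -0.383 for GFAP with AQP4. The other pairs kept their sign, among them DRD1 with PDYN at 0.823, PENK with PDYN at 0.709 and DRD1 with TAC1 at 0.658. The ratio of DRD2 to ADORA2A in TPM was 3.53 in control 6 against 0.652 to 0.889 in the other animals. The share on the first component was 54.3% at a filter of 1 TPM, 67.2% at 100 TPM, 45.3% at unit variance and 58.4 to 68.9% with each animal left out. The median r within interneuron genes was -0.108 within cohorts and -0.000838 to 0.272 with each animal left out. Within vascular genes it was 0.0912 at a filter of 1 TPM, 0.0523 with TMM, 0.0930 within cohorts and -0.0430 to 0.174 with each animal left out, and within heat shock genes -0.0372 to 0.252.

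Counts of called genes depended on the animals. At a filter of 100 TPM, which leaves 1958 genes, they were 423 on MBP, 466 on GFAP, 600 on PPP1R1B and 524 on RPLP0. With cohort as a covariate they were 0, 522, 1198 and 249. Without the 2 farthest animals they were 0 on MBP, GFAP and RPLP0 and 1438 on PPP1R1B. Without controls 6 and 8 they were 0 on MBP, 50 on GFAP, 1438 on PPP1R1B and 1769 on RPLP0. With PPP1R1B as a covariate they were 0 on MBP, 2 on GFAP and 2341 on RPLP0. TMM gave 2540 on MBP. With each animal left out the ranges were 0 to 2591 on MBP, 655 to 2163 on GFAP, 1577 to 3185 on PPP1R1B and 0 to 4124 on RPLP0, while CX3CR1 and FOS stayed at 0. Leaving out control 1 or 3 gave 689 or 584 on MBP, 655 or 677 on GFAP, 1577 or 1623 on PPP1R1B and 334 or 447 on RPLP0. The causes of these changes were not tested. No paired analysis was possible because a single group was described and its replicate numbers are only names. Depth is unknown, so levels near or below 1 TPM carry an error that cannot be stated.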

Other observations

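Genes that set single animals apart were drawn up after the values had been seen, as each animal's largest differences from the median of the other 7, and no test was made. In control 6 the neuropeptide gene GAL (78.6 against 0.438 to 22.9 TPM), the calcium-binding protein gene SCGN (96.5 against 0.609 to 17.4 TPM), the GABA transporter gene SLC6A11 (331 against 33.0 to 148 TPM) and the neurofilament gene NEFH (199 against 14.2 to 43.1 TPM) were high. Low there were the channel gene ANO3 (4.25 against 31.9 to 352 TPM), the thyroid hormone-binding crystallin CRYM (73.6 against 668 to 2094 TPM) and the signalling regulator RGS14 (44.1 against 429 to 1456 TPM).

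In control 8 the extracellular matrix genes MFAP4 (85.1 against 3.61 to 16.3 TPM) and OGN (48.0 against 2.92 to 16.9 TPM), the retinoic acid carrier CRABP2 (72.5 against 2.60 to 8.44 TPM), the growth factor IGF2 (57.9 against 6.30 to 12.9 TPM) and the hypothalamic releasing hormone gene GNRH1 (55.0 against 1.16 to 25.8 TPM) were high. In control 2, besides SLC17A7, the synaptic gene CPLX3 (47.9 against 1.02 to 32.9 TPM), the neuritin gene NRN1 (129 against 8.85 to 34.4 TPM) and the cilium gene TEKT1 (31.8 against 2.76 to 14.1 TPM) were high. CPLX3 was also high in control 7, at 32.9 TPM. In control 5 ZCCHC12 (399 against 84.7 to 338 TPM) was high, and in control 1 the T cell receptor subunit gene CD3D (49.6 against 1.35 to 32.5 TPM). CD3D was also high in controls 7 and 3, at 32.5 and 30.9 TPM.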
